A study of Mus musculus with 1 sample.

Results

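The 8 genes described here encode transcription factors that are known from the adrenal cortex and from the connective and vascular tissue around it: *Nr5a1*, *Nr0b1*, *Gata4*, *Gata6*, *Wt1*, *Tcf21*, *Nr2f1* and *Nr2f2*. They were taken by symbol from the 32285 genes listed for 1 single-cell library, and 7 of them had at least 1 UMI (unique molecular identifier, a tag that counts each captured RNA molecule once) in the cells kept. The library was made from the adrenals of wild-type mice at postnatal day 15, 10 adrenals of 5 mice of both sexes, dissected by hand to remove most of the cortex, pooled and dissociated, with 10000 viable cells loaded. Because the animals were pooled into 1 library, there are no replicates and no groups to test, and every interval below is at 95% and covers counting error only. The question was which cell classes of the dissected gland carry each factor, and at what level.

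The adrenal cortex arises from a primordium that it shares with the gonad. SF-1, the product of *Nr5a1*, is the nuclear receptor on which the steroid-producing state depends, and DAX-1, the product of *Nr0b1*, is a nuclear receptor without a classical DNA-binding domain that represses it. GATA-4 and GATA-6 bind GATA motifs, WT1 is a zinc-finger factor of the primordium and of mesothelium, TCF21 is a basic helix-loop-helix factor of stromal and capsular progenitors, and the orphan receptors COUP-TFI (*Nr2f1*) and COUP-TFII (*Nr2f2*) are known from stroma, and the second of them from venous endothelium.

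The matrix held 51421499 UMIs in 11214 barcodes with 500 to 33809 UMIs each, and 10139 cells passed the filters, with a median of 3567 UMIs and 1611 genes per cell. After clustering, 9393 of these cells (92.6%) were placed in 9 classes by marker genes: 3713 cortex-like, 2148 endothelial-like, 657 immune-like, 89 fibroblast-like, 179 sustentacular-like, 413 transitioning-like (with both sustentacular and chromaffin markers), 391 noradrenaline chromaffin-like, 1674 adrenaline chromaffin-like and 129 cycling chromaffin-like cells. Clusters with markers of more than 1 class held 703 cells and were left out, as were 43 cells of an unnamed cluster led by *Ccl5*, *Gzma* and *Nkg7*, in which all 8 genes had 0 UMIs. Levels are CPM, the UMIs of a gene per 1000000 UMIs of its class. They are counts from the 3′ end and not per length, so levels are compared between classes within a gene and never between genes. Where a gene had 0 UMIs in a class, the limit is the level that 3 UMIs would have given. The median depth ran from 1149 UMIs per cell in the sustentacular class to 6091 in the cycling chromaffin class. Shares of cells with a UMI are therefore also given with each cell thinned to 1000 UMIs. Cells with fewer than 1000 UMIs are left out of the thinned shares. Among them were 56 of the 179 sustentacular, 19 of the 89 fibroblast, 282 of the 2148 endothelial and 3 of the 3713 cortex cells.

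The 8 genes fell into a few patterns. *Nr5a1* and *Nr0b1* were cortical, but only *Nr0b1* differed sharply between the clusters of cortex cells. *Gata6* had the same level in the cortex class as a whole and in endothelium, though it differed between the clusters of cortex cells. *Nr2f2* was highest in endothelium and stroma, and both COUP-TF genes were found in the sustentacular cells of the medulla. *Gata4* and *Tcf21* were close to the limit of detection, and *Wt1* was not detected.

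**Figure D1:**
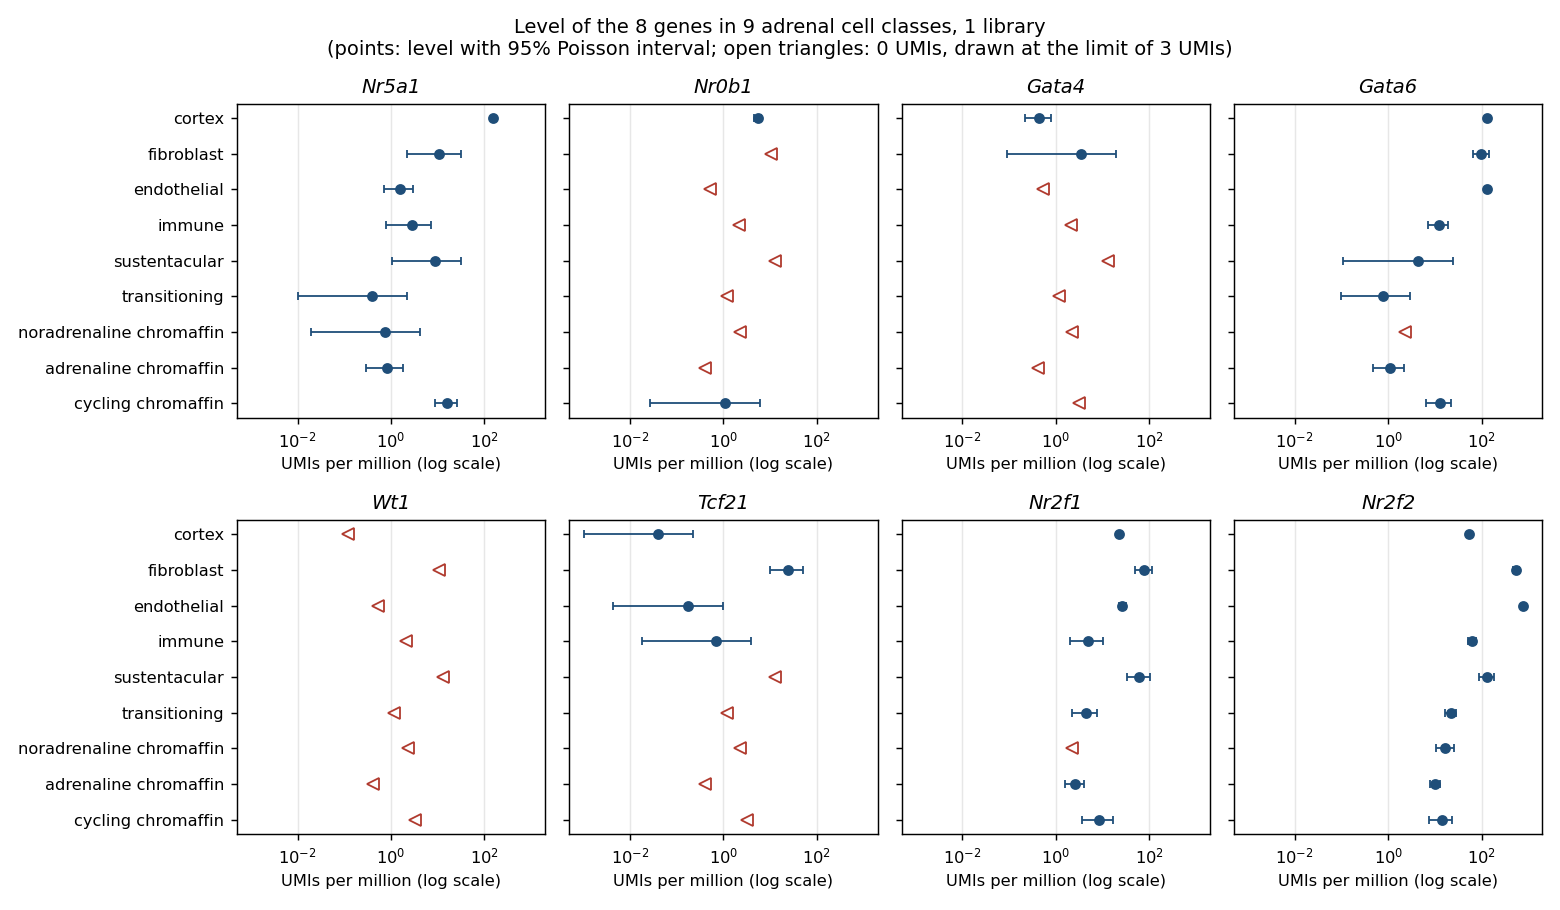
Level of each of the 8 genes (CPM, log scale) in the 9 cell classes, with the 95% Poisson interval as a line; an open triangle marks a class with 0 UMIs and is drawn at the limit of 3 UMIs. For *Nr5a1* only the cortex point stands above 100 CPM, the cortex and endothelial points of *Gata6* lie at 133 and 132, and *Wt1* has triangles in all 9 classes.

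*Nr5a1* is on the minus strand of chromosome 2 (GRCm38, chr2:38692656-38714542). It had 4049 UMIs in the cells kept, 90.6% of them in the cortex class, where the level was 149 CPM (145 to 154, 3667 UMIs). A UMI was found in 53.4% (51.8 to 55.0) of cortex cells, and in 13.1% when each cell was thinned to 1000 UMIs. The next class, cycling chromaffin, had 16.0 CPM (8.94 to 26.4, 15 UMIs), so the level in cortex was 9.35 times as high (5.66 to 16.7). With the clusters made again, the ratio was 42.2 (11.7 to 349) without the cells that the doublet caller Scrublet marked. It was 43.7 (12.1 to 361) at a clustering resolution of 0.8 with those cells kept. Leaving cells with over 1% cortex marker UMIs out of the other classes gave 14.2 (7.47 to 31.1). The fibroblast class had 10.5 CPM on 3 UMIs, the sustentacular class 8.65 CPM on 2 UMIs and the immune class 2.81 CPM on 4 UMIs. In the endothelial class the level was 1.58 CPM (9 UMIs), in adrenaline chromaffin cells 0.815 CPM (6 UMIs), in noradrenaline chromaffin cells 0.753 CPM and in transitioning cells 0.396 CPM, each of the last 2 on 1 UMI. Below the cortex no 2 neighbours in this order differed beyond their counting intervals.

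The low counts outside the cortex stood beside UMIs of other cortex genes. *Star*, which encodes the protein that brings cholesterol into the mitochondrion and is among the most abundant transcripts of cortex cells, had UMIs in 37.2% of the cycling chromaffin cells, 15.4% of the endothelial cells and 10.7% of the adrenaline chromaffin cells. Per 1000 *Star* UMIs there were 23.7 *Nr5a1* UMIs (22.9 to 24.4) in the cortex class, 27.6 (15.5 to 45.6) in cycling chromaffin cells, 20.1 (9.19 to 38.1) in endothelial cells and 28.2 (10.3 to 61.3) in adrenaline chromaffin cells. In each of these 3 classes the interval held the cortex ratio, but the intervals are wide, and among the cortex clusters the ratio itself ran from 18.4 (*Akr1c18*-high) to 37.4 (*Wnt4*-high). How much of these counts is RNA from cortex cells was not tested. Scrublet marked 11.6% of the cycling chromaffin cells and 0.119% of the adrenaline chromaffin cells. *Nr5a1os*, the antisense transcript that overlaps the 5′ part of *Nr5a1*, had 12 UMIs, 11 of them in the cortex class.

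*Nr0b1*, on the X chromosome (plus strand, chrX:86191764-86195947), had 136 UMIs, of which 132 were in the cortex class (5.38 CPM, 4.50 to 6.38). It had 1 UMI among the 129 cycling chromaffin cells (1.07 CPM, 0.0270 to 5.93), which gives a ratio of 5.05 with an interval of 0.890 to 201. In the other 7 classes it had 0 UMIs, with limits from 0.407 CPM in adrenaline chromaffin cells to 13.0 CPM in the shallow sustentacular class. A UMI was found in 3.42% (2.86 to 4.06) of cortex cells, and in 0.566% at 1000 UMIs per cell.

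Of the 5 members with at least 20 UMIs in the 9 classes, 2 (*Nr5a1* and *Nr0b1*) were highest in the cortex by at least 4-fold over the next class. The same held for 1.52% of the 15143 genes with as many UMIs. For any class the figure was 7.15%.

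The cortex cells formed 4 clusters. Each but the cycling one was called by the gene, *Wnt4*, *Cyp11b1* or *Akr1c18*, that had its highest level there. The *Wnt4*-high cluster (824 cells) was led by *Ecrg4*, *Ly6d* and *Fabp4*, the *Cyp11b1*-high cluster (897 cells) by *Cyp11b1*, *Cdkn1c* and *Hao2*, and the *Akr1c18*-high cluster (1687 cells) by *Pik3c2g*, *Fdps* and *Akr1c18*. The fourth was a cycling cluster (305 cells) led by *Top2a*, *Prc1* and *Birc5*. *Akr1c18*, a progesterone-metabolizing enzyme known from the inner X-zone of the mouse cortex, had 8147 CPM in its cluster, 6792 CPM in the cycling cluster, 395 CPM in the *Cyp11b1*-high cluster and 46.9 CPM in the *Wnt4*-high cluster. *Wnt4*, a secreted signal of the outer cortex, had 454, 69.0, 0.867 and 4.18 CPM in the *Wnt4*-high, *Cyp11b1*-high, *Akr1c18*-high and cycling clusters. The *Wnt4*-high cluster was not named as glomerulosa, because only 2 of 6 outer markers were found in at least 50% of its cells and *Cyp11b2*, the aldosterone synthase, in 4.0%.

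Many cells of the *Wnt4*-high cluster also carried endothelial RNA. The 8 endothelial markers together had 993 CPM there, against 34.5 CPM in the *Cyp11b1*-high cluster and 18.3 CPM in the *Akr1c18*-high cluster, and 269 of the 824 cells had 3 or more such UMIs. Scrublet marked 4.85% of the cells of this cluster. Each comparison between cortex clusters is therefore given for the cells with no endothelial marker UMI: 494 *Wnt4*-high, 823 *Cyp11b1*-high, 1570 *Akr1c18*-high and 243 cycling cells.

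In those cells *Nr5a1* was level between the *Wnt4*-high and *Akr1c18*-high clusters and higher in the *Cyp11b1*-high cluster. It had 141 CPM (127 to 156) in the *Wnt4*-high cluster, 189 CPM (177 to 201) in the *Cyp11b1*-high cluster, 139 CPM (132 to 147) in the *Akr1c18*-high cluster and 123 CPM (109 to 139) in the cycling cluster. The *Wnt4*-high and *Akr1c18*-high clusters differed by a ratio of 1.01 (0.899 to 1.13), and the *Cyp11b1*-high cluster was 1.36 times (1.25 to 1.48) as high as the *Akr1c18*-high one.

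*Nr0b1* behaved differently. It had 13.4 CPM (9.38 to 18.5, 36 UMIs) in the *Wnt4*-high cluster and 10.4 CPM (7.80 to 13.6, 53 UMIs) in the *Cyp11b1*-high cluster, which overlap. In the *Akr1c18*-high cluster it had 2 UMIs in 1570 cells (0.212 CPM, 0.0257 to 0.766), and in the cycling cluster 2 UMIs in 243 cells (0.907 CPM). The ratio of the *Wnt4*-high to the *Akr1c18*-high cluster was 63.1 (16.3 to 541), and of the *Cyp11b1*-high to the *Akr1c18*-high cluster 49.0 (12.9 to 416). Cells with *Akr1c18* at a high level thus kept *Nr5a1* and had nearly no *Nr0b1*.

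*Gata6*, *Nr2f1* and *Nr2f2* each fell from the *Wnt4*-high through the *Cyp11b1*-high to the *Akr1c18*-high cluster. *Gata6* had 195 CPM (179 to 213), 154 CPM (143 to 165) and 104 CPM (97.4 to 110), and the ratio of the first to the last was 1.88 (1.69 to 2.10). *Nr2f1* had 51.7 CPM (43.5 to 61.1), 19.6 CPM (16.0 to 23.9) and 12.9 CPM (10.7 to 15.5), a ratio of 4.0 (3.11 to 5.14). *Nr2f2* had 64.7 CPM (55.5 to 75.1), 32.2 CPM (27.5 to 37.5) and 24.6 CPM (21.5 to 28.0), a ratio of 2.63 (2.15 to 3.22). With the cells that carried endothelial RNA included, the ratio of *Nr2f2* rose to 5.04 (4.37 to 5.82), while those of *Gata6* and *Nr2f1* were 1.67 and 3.72. The cycling cluster had 109 CPM of *Gata6*, 17.2 CPM of *Nr2f1* and 30.4 CPM of *Nr2f2*, and its interval overlapped that of the *Akr1c18*-high cluster for all 3.

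**Figure D2:**
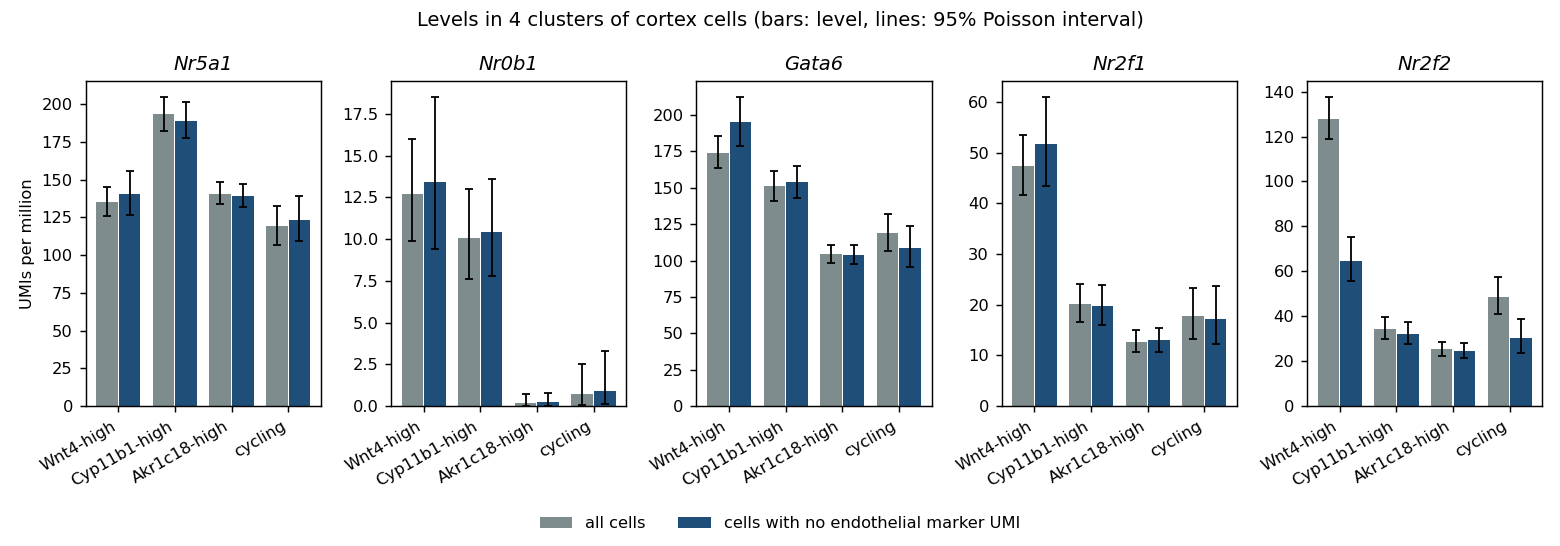
Level (CPM) of 5 factors in the 4 clusters of cortex cells, over all cells (grey) and over the cells with no endothelial marker UMI (blue), with 95% Poisson intervals as lines. *Nr5a1* stays between 123 and 189 in the blue bars, *Nr0b1* drops from 13.4 and 10.4 to 0.212 in the *Akr1c18*-high cluster, and the grey bar of *Nr2f2* in the *Wnt4*-high cluster (128) is well above the blue one (64.7).

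Of the 5 members with at least 20 UMIs in cortex cells 3 (*Nr0b1*, *Nr2f1* and *Nr2f2*) were thus at least 2-fold higher in the *Wnt4*-high than in the *Akr1c18*-high cluster. The same was true of 20.9% of the 11914 genes compared, so a difference of this size was common between these clusters.

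The genes that SF-1 is known to act on differed widely between the cortex clusters. All 13 genes of the list were highest in the cortex class, where 15% of all genes placed were, 9 of them by at least 4-fold, and the median fold over the next class was 8.70, against 1.26 over all genes. This is a description only, since *Star*, *Cyp11a1*, *Hsd3b1*, *Cyp21a1*, *Cyp11b1*, *Scarb1*, *Mc2r*, *Fdx1* and *Akr1b7* are also among the 10 markers that named the class. Between the *Wnt4*-high and *Akr1c18*-high clusters 7 were at least 2-fold higher in the first and 2 at least 2-fold higher in the second, where 20.9% and 11.3% of all genes compared were. This comparison is a description too. The factors were kept out of the making of the clusters but the target genes were not, and *Cyp11b1* gave a cluster its name. A wider spread of the targets than of *Nr5a1* can therefore come partly from the clustering. The 4 with the most UMIs were *Star* (ratio 0.432), *Hsd3b1*, a steroid dehydrogenase (1.86), *Cyp21a1*, the 21-hydroxylase (1.38), and *Cyp11a1*, the side-chain cleavage enzyme (2.13). The widest differences, named after their values were seen, were those of *Mc2r*, the ACTH receptor (528 against 6.90 CPM, ratio 76.6, 59.7 to 99.7), *Cyp11b1*, the 11β-hydroxylase (59.9, 53.6 to 67.1), *Inha*, the inhibin α-subunit (18.9, 15.3 to 23.6), and *Mrap*, the accessory protein of the ACTH receptor (0.131, 0.121 to 0.142). *Cyp11b2* had 62 UMIs in all, and its ratio of 154 had an interval of 26.3 to 6231.

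**Figure D3:**
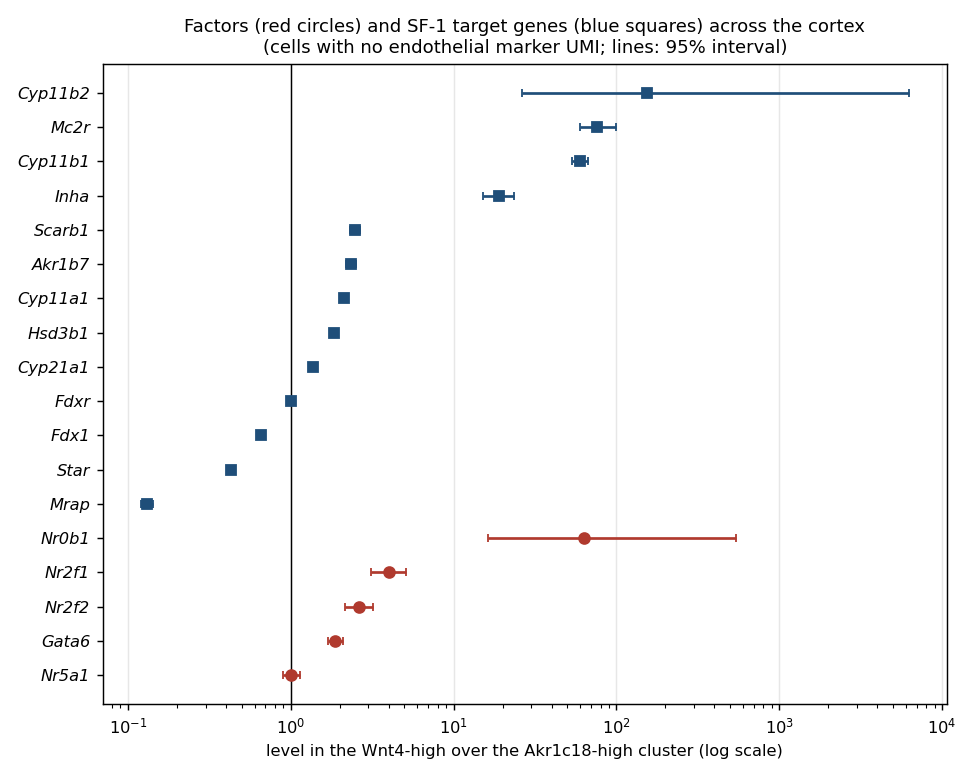
Level in the *Wnt4*-high over that in the *Akr1c18*-high cortex cluster (log scale) for 5 factors (red circles) and the 13 SF-1 target genes (blue squares), in cells with no endothelial marker UMI, with 95% intervals as lines. *Nr5a1* lies at 1.01, and its target genes run from 0.131 for *Mrap* to 154 for *Cyp11b2*. The factors were kept out of the clustering and the target genes were not.

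Within the *Wnt4*-high and *Cyp11b1*-high clusters combined, 85 cells with no endothelial marker UMI had *Nr0b1* and 1232 had none. The 2 sets had *Nr5a1* at 191 and 170 CPM (ratio 1.12, 0.931 to 1.34) and *Star* at 5618 and 5716 CPM (ratio 0.983, 0.951 to 1.02), so no difference in either was detectable. *Cyp11a1* was 1.16 times (1.12 to 1.19) as high in the cells with *Nr0b1*. *Akr1c18* UMIs were in 16.5% of the cells with *Nr0b1* and in 17.3% of those without, but its level was lower in the first, at 117 against 294 CPM (ratio 0.398, 0.315 to 0.497). These levels came from 82 UMIs in 14 cells and 2079 UMIs in 213 cells. None of the intervals in this paragraph covers the spread between cells, so the size of each difference is uncertain. The cells with *Nr0b1* were also deeper, with a median of 7784 UMIs against 4913.5, and the part of depth was not tested.

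The sequence before the start of *Nr0b1* is shown because this gene is the one that differed most between cortex cells with similar *Nr5a1*, and that before *Nr2f2*, the member highest in endothelium and stroma, is shown beside it. Both are reference sequence from RefSeq (GRCm38.p6), which gave windows for 4 of the 8 genes, and both were searched on each strand for AGGTCA, the hexamer that nuclear receptors of the SF-1 and COUP-TF families bind; capitals mark a match. The first (chrX:86191525-86191763, plus strand) ends where the annotated exon begins and the second (chr7:70366747-70366996, minus strand) lies over an exon of the neighbouring noncoding gene *B130024G19Rik*.
Nr0b1: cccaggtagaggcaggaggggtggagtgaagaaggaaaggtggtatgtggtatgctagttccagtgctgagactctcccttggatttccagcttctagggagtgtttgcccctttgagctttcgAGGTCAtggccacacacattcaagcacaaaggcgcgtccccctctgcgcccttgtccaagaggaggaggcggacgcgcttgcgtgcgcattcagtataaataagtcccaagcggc
Nr2f2: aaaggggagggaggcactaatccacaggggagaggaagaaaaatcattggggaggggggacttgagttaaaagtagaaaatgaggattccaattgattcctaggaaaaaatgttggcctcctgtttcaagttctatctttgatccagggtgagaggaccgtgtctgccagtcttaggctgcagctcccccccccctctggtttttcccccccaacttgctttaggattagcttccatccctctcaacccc
The *Nr0b1* window held 1 AGGTCA, 126 bases before the start, and 1 TATAAA, 32 bases before it, and the matches do not overlap. Both distances are counted from the RefSeq start, which lies inside the annotated exon, a little past the end of the printed sequence. The *Nr2f2* window held neither. Of 32851 promoter windows of 250 bases, 14.0% held AGGTCA and 12.4% TATAAA, so a match of either is not rare, and no binding was measured here.

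*Gata6*, on the plus strand of chromosome 18 (chr18:11052064-11085635), had 4415 UMIs. Its level was 133 CPM (128 to 137, 3261 UMIs) in the cortex class and 132 CPM (122 to 141, 751 UMIs) in the endothelial class, a ratio of 1.01 (0.932 to 1.09). The cortex level is an average over unlike clusters and depends on their shares of the dissected cells. Over all cells it was 174 CPM (163 to 186) in the *Wnt4*-high and 105 CPM (98.5 to 111) in the *Akr1c18*-high cluster. Thinned to 1000 UMIs, 12.7% of cortex cells and 12.1% of endothelial cells had a *Gata6* UMI, while the unthinned shares were 50.2% and 24.7%, at median depths of 5348 and 2005.5 UMIs per cell. The fibroblast class had 98.4 CPM (65.4 to 142, 28 UMIs), which overlaps the endothelial interval. A drop followed: 12.8 CPM in cycling chromaffin cells (12 UMIs) and 11.9 CPM in immune cells (17 UMIs), with 7.70 times (3.79 to 16.6) between the fibroblast and cycling chromaffin classes. The medullary classes had 8 UMIs among 1674 adrenaline chromaffin cells (1.09 CPM), 2 among 413 transitioning cells, 1 among 179 sustentacular cells and 0 among 391 noradrenaline chromaffin cells. The cortex level was 122 times (62.0 to 283) that of adrenaline chromaffin cells.

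In the endothelium the level of *Gata6* was 138 CPM in the deeper of the endothelial clusters (637 cells), 123 CPM in the shallower one (1114 cells) and 131 CPM in the cycling one (397 cells). It was lower in cells with arterial genes. The 164 endothelial cells with 2 or more of 7 arterial marker genes had 90.4 CPM, and the 1382 cells with none had 145 CPM, a ratio of 0.625 (0.477 to 0.808). Cells with more arterial genes were also deeper. The median was 1622.5 UMIs in cells with none, 4004 in those with 2 and 4245 in those with 3 or more. The part of depth was not tested.

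In the cycling chromaffin and immune classes the *Gata6* counts are given beside markers of other classes. There were 22.1 *Gata6* UMIs (11.4 to 38.6) per 1000 *Star* UMIs in the cycling chromaffin cells and 21.0 (20.3 to 21.8) in the cortex class. Of the 17 UMIs in the immune class, 15 were in the 54 cells with 3 or more endothelial marker UMIs, and 1 was in the 575 cells with none.

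*Gata4* (minus strand, chr14:63198922-63271692) had 13 UMIs in all. The cortex class had 11 UMIs (0.448 CPM, 0.224 to 0.802), 7 of them in 6 cells of the *Wnt4*-high cluster, and the fibroblast class had 1 (3.51 CPM, 0.0890 to 19.6). The ratio of the fibroblast to the cortex class, 7.84, had an interval of 0.182 to 53.9 and gives no order. Of the 6 *Wnt4*-high cells with *Gata4*, 5 also had *Gata6* and 5 had *Nr5a1*. In the whole *Wnt4*-high cluster *Gata6* was found in 59.2% and *Nr5a1* in 49.8% of cells. In the other 7 classes *Gata4* had 0 UMIs.

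Of the other GATA factors and their FOG cofactors, 4 of 6 had at least 20 UMIs, and 3 of these were highest in adrenaline chromaffin cells, where *Gata6* was near 0 and 8.4% of all genes placed were highest. *Gata3* had 322 CPM and *Gata2* 292 CPM there, against 3.87 and 1.91 CPM in the cortex class, and *Zfpm1*, which encodes the cofactor FOG-1, had 75.7 CPM. None of these 3 was at least 4-fold over its next class. *Zfpm2*, which encodes FOG-2, was the exception, with 24.6 CPM in the fibroblast class and 4.21 times that of the next class. In this small class 24.6 CPM is the level that 7 UMIs give, with an interval of 9.89 to 50.7, so the fold is known only roughly.

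*Wt1* (plus strand, chr2:105126529-105173616) had 0 UMIs in all 11214 barcodes. In the cortex class 3 UMIs would have given 0.122 CPM, and with 0 of 3713 cells the interval of the share of cells with a UMI runs up to 0.0993%. In the 89 fibroblast cells the limit is 10.5 CPM and the interval of the share runs up to 4.06%. A low level in a small stromal population was thus not detectable at this depth. These shares limit the cells with a UMI, not the cells that express the gene. Its antisense transcript *Wt1os* also had 0 UMIs.

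*Tcf21* (minus strand, chr10:22817281-22820174) had 11 UMIs, 7 of them in 6 of the 89 fibroblast cells (24.6 CPM, 9.89 to 50.7). The immune, endothelial and cortex classes had 1 UMI each, and the other 5 classes had 0. The fibroblast class had 35.0 times the level of the immune class, with an interval of 4.50 to 1579. All 6 fibroblast cells with *Tcf21* also had *Nr2f2*, 5 had *Dcn* and 5 had *Col1a1*, which encode the matrix proteins decorin and collagen I. These genes were common in the whole class, with *Nr2f2* in 71.9% of its cells, *Dcn* in 73.0% and *Col1a1* in 61.8%. *Pdgfra*, another fibroblast marker, was in 1 of the 6 cells and in 15.7% of the class.

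Among 18 other stromal and capsular transcription factors, 11 had fewer than 20 UMIs, among them *Gli1* and *Gli2*, mediators of hedgehog signalling, with 4 and 2 UMIs. Of the 7 that could be placed, 4 were highest in the fibroblast class, where 13.4% of all genes placed were. Of these 4, *Prrx1* (162 CPM, 42.7 times the next class) was the one at least 4-fold higher, as were 0.858% of all genes placed, and *Ebf1* had 239 CPM in this class and 152 CPM in the endothelial class. The other placed factors were highest in the cortex, endothelial and sustentacular classes, 1 in each. The one highest in the cortex was also at least 4-fold over the next class, as were 1.52% of all genes placed. Of the adrenal primordium factors, 5 of 10 had under 20 UMIs, and *Lhx9* and *Emx2* had 0. Of the 5 that could be placed, 0 were highest in the cortex class, where 15% of all genes placed were. Their median fold over the next class was 1.21, against 1.26 over all genes. Among them *Cited2*, a coactivator, had 453 CPM in the immune and 373 CPM in the cortex class. Of 10 gonadal lineage genes, 8 had under 20 UMIs in all classes together, among them *Dmrt1*, *Lhcgr* and *Fshr* with 0. Of the 8 bHLH partners and relatives of *Tcf21*, 6 could be placed, 1 of them highest in the cortex, where 15% of all genes placed were. None was at least 4-fold over the next class, as 7.15% of all genes placed were. The most abundant were the E-protein genes *Tcf4*, with 1432 CPM in the endothelial class, and *Tcf12*, with 146 CPM in noradrenaline chromaffin cells.

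*Nr2f2* (minus strand, chr7:70351944-70366735) had 6735 UMIs. Its level was 767 CPM (744 to 790, 4375 UMIs) in the endothelial class and 548 CPM (465 to 641, 156 UMIs) in the fibroblast class, a ratio of 1.40 (1.19 to 1.65). This order was not stable: with fibroblast-like cells that held an endothelial marker UMI left out, the ratio was 0.935 (0.675 to 1.34), and from the mean of the CPM of each cell it was 0.995. The sustentacular class followed with 130 CPM (87.6 to 185, 30 UMIs), then the immune class with 62.5 CPM (50.2 to 76.9, 89 UMIs) and the cortex class with 53.3 CPM (50.5 to 56.3, 1309 UMIs). Transitioning cells had 22.2 CPM (16.7 to 28.8, 56 UMIs), noradrenaline chromaffin cells 16.6 CPM (10.4 to 25.1, 22 UMIs), cycling chromaffin cells 13.8 CPM (7.37 to 23.7, 13 UMIs) and adrenaline chromaffin cells 10.2 CPM (8.01 to 12.8, 75 UMIs). Each of the first 3 differed from the next beyond counting error, immune and cortex did not, cortex and transitioning did (2.41 times, 1.84 to 3.20), and the last 4 did not differ between neighbours. A UMI was found in 69.6% (67.6 to 71.5) of endothelial cells and, at 1000 UMIs per cell, in 49.9% of endothelial, 44.3% of fibroblast, 14.6% of sustentacular and 4.29% of cortex cells.

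Among endothelial cells *Nr2f2* was high in each cluster. The deeper cluster had 870 CPM, the shallower one 727 CPM and the cycling one 646 CPM. Cells with 2 or more arterial genes had 735 CPM and those with none 767 CPM (735 to 800), a ratio of 0.959 (0.872 to 1.05). Within the former, the 141 cells with 2 had 764 CPM, and the 23 with 3 or more had 590 CPM (463 to 741). COUP-TFII is known for its part in venous identity. Cells with more arterial genes were also deeper, and the part of depth was not tested. Of the 6 venous genes, 4 could be placed and 3 were highest in the endothelial class, including the semaphorin receptor gene *Nrp2* (427 CPM) and the apelin receptor gene *Aplnr* (99.4 CPM). For scale, 12.3% of all genes placed were highest there. Of the 9 arterial genes, 7 could be placed, 4 of them highest in the fibroblast class, 2 in the sustentacular class and 1 in the endothelial class. Over all genes placed, 13.4% were highest in the fibroblast class. The connexin gene *Gja4* was the 1 at least 4-fold over the next class, as were 7.15% of all genes placed. It had 73.8 CPM in the fibroblast and 3.50 CPM in the endothelial class. *Dll4*, a Notch ligand gene, had 31.6 and 31.2 CPM in the same classes. The UMIs of the arterial markers in the fibroblast class were mostly in cells that also had endothelial markers: 10 were in the 39 cells with fibroblast markers only, 37 in the 16 with endothelial markers only and 37 in the 24 with both.

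The level of *Nr2f2* in the immune class rested on few cells. The 575 immune cells with no endothelial marker UMI had 3 *Nr2f2* UMIs (2.69 CPM, 0.554 to 7.85), and the 54 cells with 3 or more had 83 (358 CPM, 285 to 443), which is 93.3% of the UMIs of the class in 8.22% of its cells. There were 68.6 *Nr2f2* UMIs (55.1 to 84.4) per 1000 endothelial marker UMIs in the immune class and 95.3 (92.5 to 98.2) in the endothelial class. Scrublet marked 11.4% of the immune cells. In the *Wnt4*-high cortex cluster the cells with 3 or more endothelial marker UMIs had 212 CPM (194 to 231), and those with 1 to 2 had 68.3 CPM (46.7 to 96.4), close to the 64.7 CPM of those with none. *Nr2f1* and *Gata6* showed no such rise there: they had 39.8 and 158 CPM in the cells with 3 or more endothelial UMIs against 51.7 and 195 CPM in those with none.

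**Figure D4:**
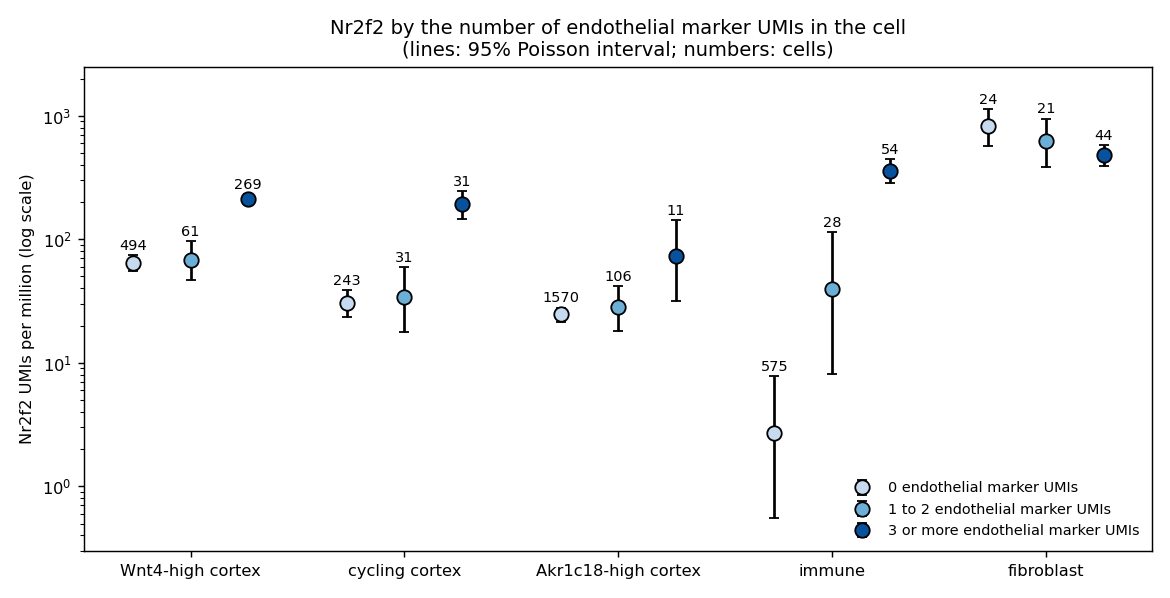
Level of *Nr2f2* (CPM, log scale) in cells with 0, 1 to 2 and 3 or more UMIs of the 8 endothelial markers, for 3 cortex clusters and the immune and fibroblast classes, with 95% Poisson intervals as lines and the number of cells above each point. The immune class goes from 2.69 to 358, the *Wnt4*-high cluster from 64.7 to 212, and the fibroblast class starts at 820 in cells with no endothelial UMI.

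The fibroblast class needs the same split, because its 89 cells were not of 1 kind. Its leading genes included *Mgp*, *Tagln* and *Dcn*, the endothelial markers together had 4388 CPM in it, *Star* UMIs were in 24.7% of its cells and *Scn7a*, a sustentacular marker, in 24.7%. The 39 cells with at least 3 of 8 fibroblast markers and fewer than 2 endothelial markers had 53 *Nr2f2* UMIs (719 CPM, 538 to 940) and 15 *Gata6* UMIs (203 CPM, 114 to 335), but only 2 *Nr2f1* UMIs (27.1 CPM, 3.28 to 98.0). *Tcf21* also had 2 UMIs in them (27.1 CPM), close to its 24.6 CPM in the whole class. The 16 cells with at least 3 endothelial and fewer than 3 fibroblast markers had 28 *Nr2f2* UMIs (566 CPM, 376 to 817), 4 *Gata6* UMIs (80.8 CPM) and 12 *Nr2f1* UMIs (242 CPM, 125 to 423). The ratio of the first set to the second was 0.112 (0.0122 to 0.503) for *Nr2f1*, 1.27 (0.789 to 2.09) for *Nr2f2* and 2.52 (0.802 to 10.4) for *Gata6*. For *Tcf21*, with 2 UMIs in each set, it was 0.671 (0.0487 to 9.26). Only the interval for *Nr2f1* leaves out 1. The 24 cells with both kinds of marker, the deepest of the class, had 67 *Nr2f2* UMIs (446 CPM, 346 to 566), 9 *Gata6* UMIs (59.9 CPM, 27.4 to 114) and 7 *Nr2f1* UMIs (46.6 CPM, 18.7 to 96.0). *Nr5a1* had 0 UMIs in the 39 cells. Markers of mural cells, the supporting cells of vessel walls, among them *Tagln*, were found in all 3 sets. At least 3 such markers were in 12 of the 39 cells, 8 of the 16 and 14 of the 24, so the 39 cells are not fibroblasts alone by their markers.

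*Nr2f1* (minus strand, chr13:78188973-78199757) had 854 UMIs. The fibroblast class had 77.3 CPM (48.4 to 117, 22 UMIs) and the sustentacular class 60.6 CPM (33.1 to 102, 14 UMIs), which did not differ beyond counting error (ratio 1.28, 0.624 to 2.70, or 0.387, 0.00910 to 2.58, without the cells that held an endothelial marker UMI). The endothelial class had 26.5 CPM (22.4 to 31.0, 151 UMIs) and the cortex class 22.8 CPM (21.0 to 24.8, 560 UMIs), again without a difference between them (1.16, 0.963 to 1.39). Cycling chromaffin cells had 8.52 CPM (8 UMIs), immune cells 4.91 CPM (7 UMIs), transitioning cells 4.35 CPM (11 UMIs) and adrenaline chromaffin cells 2.58 CPM (19 UMIs), and noradrenaline chromaffin cells had 0 UMIs, with a limit of 2.26 CPM. A UMI was found in 20.2% (12.4 to 30.1) of fibroblast cells. At 1000 UMIs per cell the shares were 11.4% of fibroblast, 6.50% of sustentacular, 2.79% of endothelial and 1.64% of cortex cells.

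Sustentacular cells, the glia-like support cells of the medulla, thus carried both COUP-TF genes. In the 175 sustentacular cells with no endothelial marker UMI, *Nr2f2* had 136 CPM (91.6 to 194, 30 UMIs) and *Nr2f1* had 58.9 CPM (31.3 to 101, 13 UMIs). The endothelial markers had 4 UMIs in the whole class (17.3 CPM), fewer than *Nr2f2* itself, and *Pecam1* had 1 of these and *Plvap* and *Cldn5* had 0. *Dcn* and *Pdgfra*, markers of fibroblasts, also had 0 UMIs, while *Col1a2* and *Col3a1*, collagen genes that are fibroblast markers too, had UMIs in 53.1% and 52.5% of the cells. The class kept its own markers, with *Scn7a* in 70.4% of cells. The cortex factors *Nr5a1* and *Gata6* had 2 and 1 UMIs in it.

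Levels of both genes were lower in the chromaffin cells. Among cells with no endothelial marker UMI, *Nr2f2* had 23.4 CPM (17.2 to 31.2, 47 UMIs) in transitioning cells, 15.6 CPM (9.37 to 24.3, 19 UMIs) in noradrenaline chromaffin cells and 9.98 CPM (7.60 to 12.9, 59 UMIs) in adrenaline chromaffin cells. Sustentacular cells had 5.80 times (3.54 to 9.36) the level of transitioning cells. Transitioning cells had 2.35 times (1.57 to 3.50) the level of adrenaline chromaffin cells. The transitioning and noradrenaline classes did not differ beyond counting error (1.5, 0.866 to 2.72). These levels are per UMI of the class, and sustentacular cells were shallower, with a median of 1149 UMIs against 4668 in transitioning cells. The unthinned shares of cells with an *Nr2f2* UMI were closer, at 16.0% (10.9 to 22.3) and 12.1% (8.86 to 16.0). With the cells of the whole classes thinned to equal depth, the shares were 14.6% (8.91 to 22.1) and 2.92% (1.52 to 5.04). For *Nr2f1* sustentacular cells had 11.8 times (4.78 to 30.1) the level of transitioning cells and 24.9 times (10.8 to 57.0) that of adrenaline chromaffin cells. With 13 UMIs in 1 class of low depth, the size of this difference is known only roughly.

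**Figure D5:**
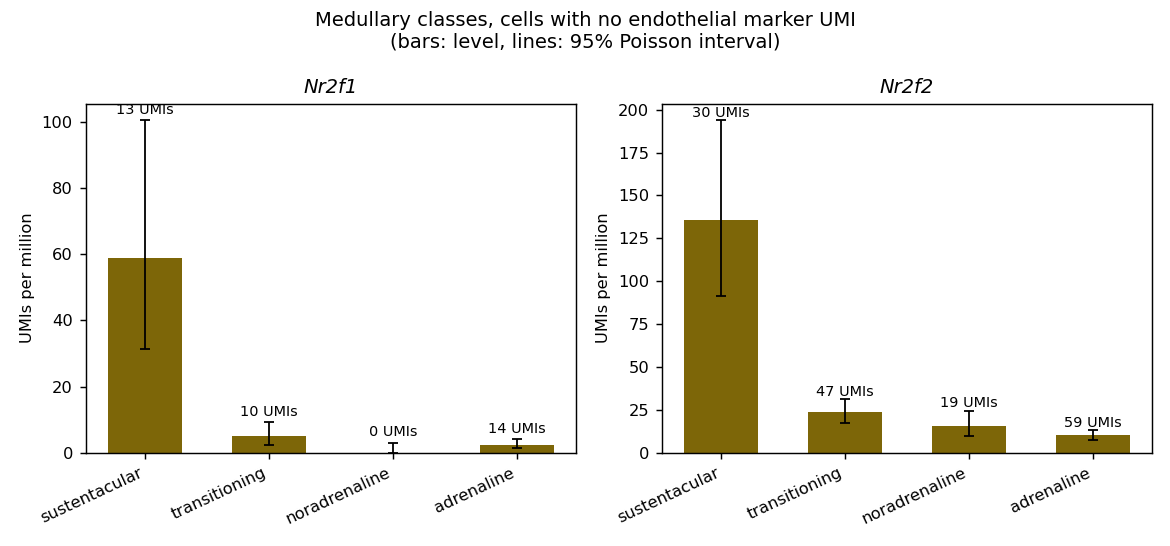
Level (CPM) of *Nr2f1* and *Nr2f2* in 4 medullary classes, over cells with no endothelial marker UMI, with 95% Poisson intervals as lines and UMI counts above the bars. Sustentacular cells are highest for both genes, at 58.9 and 136, and transitioning cells lie at 4.98 and 23.4.

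Of 11 other orphan nuclear receptor genes, 9 could be placed and 2 were highest in the cortex class, where 15% of all genes placed were. In the fibroblast class 3 were highest, where 13.4% of all genes placed were. *Nr0b2*, the closest relative of *Nr0b1* (it encodes SHP), had 174 CPM in cortex, 14.8 times the next class, and between the cortex clusters it had the opposite slope to *Nr0b1*, with 0.367 times (0.319 to 0.420) the *Akr1c18*-high level in the *Wnt4*-high cluster. *Nr5a2*, the paralog of *Nr5a1*, had 44.0 CPM in the endothelial class and 1.75 CPM in cortex.

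The 3 genes with the profile most like each member over 17 clusters were found by the Pearson correlation of log2(CPM + 10). The clusters share 1 library, and a correlation over them describes where the genes are and nothing more. For *Nr5a1* they were *Acsl4* (r = 0.993), *Akr1b8* (0.989) and *Adh7* (0.989), for *Nr0b1* *Slc27a3* (0.969), *Fgf9* (0.963) and *4930426D05Rik* (0.958), and for *Gata6* *Tspan12* (0.988), *Acsf2* (0.975) and *Yap1* (0.972). For *Nr2f1* they were *Syde1* (0.962), *Gpx8* (0.942) and *Cdc42ep5* (0.936), and for *Nr2f2* *Eng* (0.980), *Kctd12b* (0.980) and *Homer3* (0.977). *Gata4* was most like *Dcn*, *Bicc1* and *Fbn1*, and *Tcf21* most like *Tagln*, *Dcn* and *Bicc1*, both on so few UMIs that 1 cluster sets the order. Between members the correlation was 0.778 for *Nr2f1* and *Nr2f2*, 0.709 for *Nr5a1* and *Nr0b1*, and -0.0445 for *Nr5a1* and *Nr2f2*.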

How the data were processed

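The authors made the deposited matrix of UMI counts, 1 column per barcode, with Cell Ranger 4.0.0 and mm10 per the submitters' processing notes; strand handling in the counting is not given in the sources used here. Cells with 500 to 5000 genes and at most 20% mitochondrial UMIs were kept. Seurat 5.3.0 (R 4.3.3) log-normalized them, took 2000 variable features without the 8 members (2 had been among them), 10 principal components and Louvain clusters at 0.4, and medullary cells were clustered again. A class needed 3 markers in at least 50% of cells (25% for sustentacular and cycling markers). Classes are "-like" throughout. Scrublet (scanpy 1.11.5) marked 669 cells (6.60%), which were left out only as an alternative. UMIs were summed per class, with exact Poisson intervals, conditional binomial intervals for ratios and Clopper-Pearson intervals for shares (scipy 1.17.1), tested on simulated data. There was no test between samples. Named were all members, the 3 genes most like each (at least 200 UMIs), antisense transcripts, and from each list 2 to 4 genes with the most UMIs in the class counted; other list genes were named after their values were seen. The members and lists were chosen with earlier results of these data known. Positions are from GENCODE M21 on GRCm38. Some list and marker genes are not reported here.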

Additional observations from a re-analysis of the deposited data

How the results depend on the processing

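Of 53 alternatives to the ratio of the highest to the next class, 41 stayed within the counting interval, 10 moved out of it and 2 reversed. *Gata6* stayed at 0.947 to 1.03 in all 10, *Tcf21* at 22.7 to 52.2 in 8 and *Nr0b1* at 3.35 to 5.09 in the 3 that gave a value. For *Nr5a1* the ratio of 9.35 became 43.7 at resolution 0.8, 47.4 with 30 principal components, 41.4 with stricter cell filters and 42.2 without Scrublet doublets. For *Nr2f2* (1.40) it reversed to 0.995 with the mean of the CPM of each cell and to 0.935 without cells holding an endothelial marker UMI, an alternative chosen after seeing the data, and was 1.04 with classes assigned cell by cell from marker UMIs. For *Nr2f1* (1.28) it was 0 with classes assigned cell by cell and 0.387 without endothelial UMIs. For *Gata4* (7.84, on 1 fibroblast UMI) it was 0 under both of these and with cells over 1% cortex marker UMIs left out. The cause was not tested. Shares of cells with a UMI, thinned to 1000 UMIs and then with at least 2 UMIs required, were 13.1% and 24.6% for *Nr5a1*, 0.566% and 0.135% for *Nr0b1*, 0 and 0 for *Gata4*, 12.7% and 22.2% for *Gata6*, 11.4% and 4.49% for *Nr2f1*, 49.9% and 44.9% for *Nr2f2*, and with at least 2 UMIs 1.12% for *Tcf21*. Of the 21 genes named as most like a member, 12 were shared with a pseudocount of 1, 4 with Spearman correlation and 13 with a limit of 50 UMIs. Over 7 clusterings, in cells with no endothelial marker UMI, the ratio of the *Wnt4*-high to the *Akr1c18*-high cluster ran from 0.937 to 1.24 for *Nr5a1*, 1.62 to 1.92 for *Gata6*, 2.37 to 4.43 for *Nr2f1* and 1.76 to 2.75 for *Nr2f2*, and for *Nr0b1* from 44.7 to 67.8 with 2 undefined. At resolution 0.2 there was no fibroblast or cycling chromaffin class and only *Gata6* gave a value; *Wt1* gave none. No paired analysis was possible because there is 1 library. *Gata4* and *Tcf21* rest on 13 and 11 UMIs, and *Wt1* had 0.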
